A study of Mus musculus with 12 samples.

Results

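Interferon-stimulated genes are the transcripts that cells raise when interferon binds its receptors. The 38 genes followed here are a list of symbols chosen with earlier results of these data known. Each is represented by the probe set with the highest mean over 12 arrays. A probe set with a single symbol was present for 32 of the 38, among 12393 genes on the array. Isg15 shares its probe set with another gene and is not reported, and Ifi44, Ifi27, Ddx58, Xaf1 and Samd9l had no probe set under these symbols. Oas3 did not pass the filter on dim signals, which left 31 members among 8469 genes tested.

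The livers came from 12 adult male C57BL6/J mice aged 8 weeks, in 4 groups of 3. The groups were mice labelled txnrd1 liver-null given 100 mg/kg acetaminophen (APAP), mice labelled liver-null given saline, wild-type mice given the same dose of APAP and wild-type mice given saline. Injections were intraperitoneal and livers were taken 8 hours later. In the liver-null mice a conditional allele of Txnrd1, the gene of cytosolic thioredoxin reductase, is disrupted by albCre, a Cre recombinase driven in hepatocytes, so cells that make no Cre are not targeted. There was 1 Affymetrix array for each mouse, and values are deposited log2 expression values, so that a difference of 1 is a doubling.

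Interferons are secreted proteins that signal infection or released nucleic acid. Type I interferons act through the kinases JAK1 and TYK2, which switch on a complex that contains STAT2 and IRF9, and this complex binds an interferon-stimulated response element (ISRE) in its target promoters. Interferon gamma acts largely through a gamma-activated sequence (GAS). Many of these genes have a basal expression in uninfected liver, in hepatocytes and in Kupffer cells, the resident macrophages.

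Txnrd1 itself did not check the genotype labels. Its brightest probe set read higher in the 6 livers labelled liver-null than in the 6 wild-type livers (log2 difference 0.75, SE 0.09, adjusted p = 0.000858), and its 2 other probe sets averaged 1.89 and 1.45, near background. The position of these probe sets against the disrupted exons is not analysed here, so every genotype direction below rests on the labels. Of 18 tested target genes of NRF2, the stress factor that loss of this reductase is known to activate, 14 rose in livers labelled liver-null and 0 fell (limma, adjusted p under 0.05), Nqo1 by 3.26 on the log2 scale. Over all genes tested 2.28% were called higher and 2.18% lower in the same comparison. The arrays also fell into 2 sets that no label names: the upper quartile of the log2 values was 5.49 to 5.58 on 4 arrays, 1 in each group, and 5.73 to 5.85 on the other 8. These are called the smaller and the larger set. The smaller set holds liver-null APAP 17, liver-null saline 16, wild-type APAP 14 and wild-type saline 10. Array medians were 2.91 to 2.99. Of the tested members, 3 had a mean below the highest array median and 11 lay within 1 log2 unit above it, so small differences in them are close to background. The hepatocyte marker Alb read 13.66 to 13.85 on the 12 arrays.

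Of the 31 interferon-stimulated genes 5 were lower in the livers labelled liver-null when the genotype difference was averaged over both treatments. These were Usp18, Irf9, Parp9, Parp14 and Iigp1, which fell between 1.36-fold and 2.44-fold, and no member rose. The 5 make up 16.1% of the tested members. Over all 8469 genes 2.18% were called lower, 2.28% higher and 4.46% in either direction (limma, adjusted p under 0.05, 6 livers per genotype). Of the 31 members 26 had a difference below 0, with a median of -0.26, against a median of -0.01 over all genes, of which 53.2% were below 0. Because the members were chosen with earlier results of these data known, these shares describe the list and are no test of it. The differences of the members ran from -1.29 to 0.42. In whole liver, fewer cells of a type and less RNA per cell cannot be told apart.

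**Figure D1:**
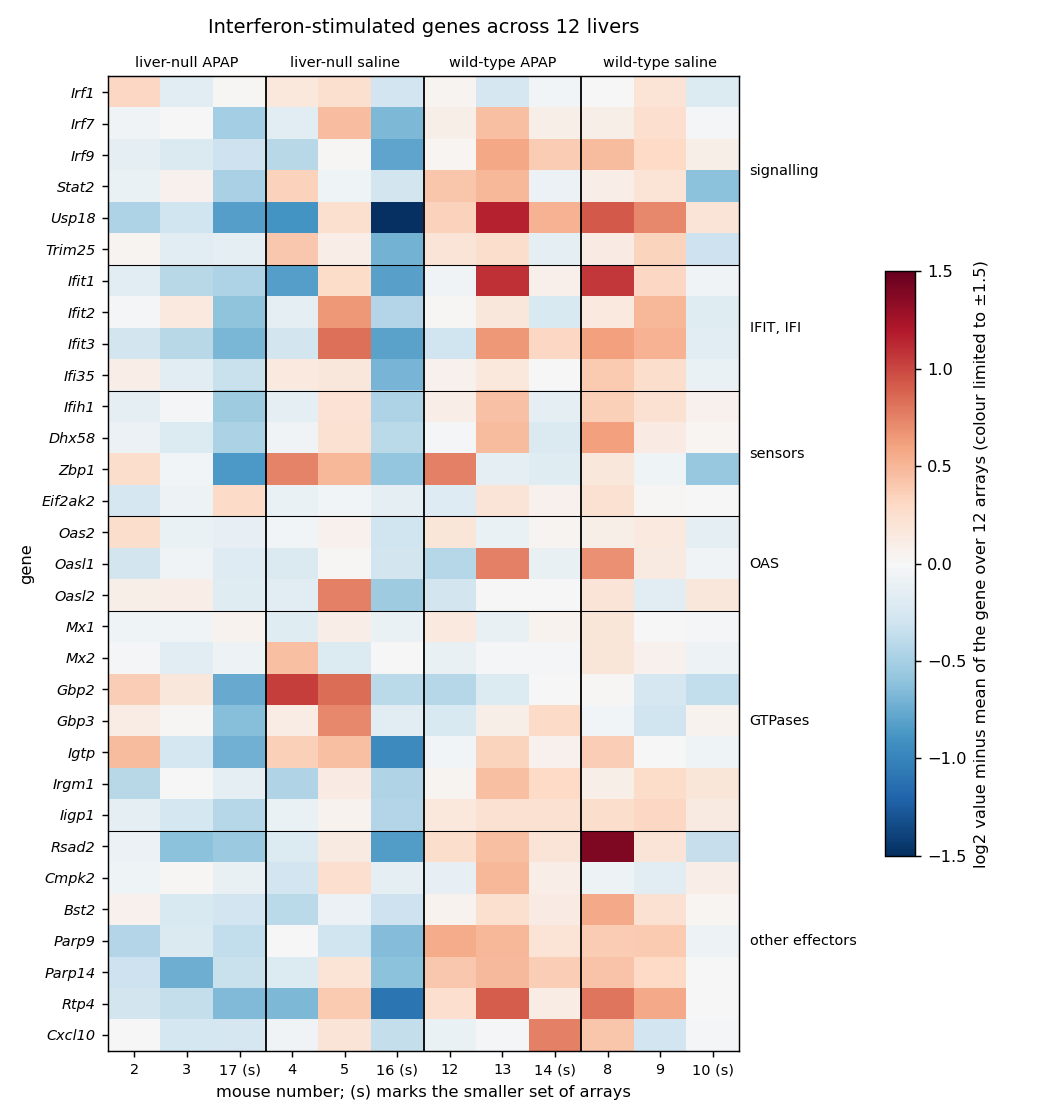
Deviation of each of the 31 tested interferon-stimulated genes (rows, grouped by role) from its own mean over 12 arrays, on the log2 scale, in each liver (columns, by mouse number, with the smaller set of arrays marked). Blue is below and red above the mean of the gene; Usp18, Irf9, Parp9, Parp14, Iigp1 and Rtp4 are mostly blue in the liver-null columns and red in the wild-type columns, and liver-null saline 5 stands above the other liver-null livers for many genes.

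The spread between livers of a group was wide, and it ran through many members together. The mean deviation of the 31 members from their own gene means was -0.06, -0.16 and -0.38 in liver-null APAP livers 2, 3 and 17 and -0.07, 0.24 and -0.53 in liver-null saline livers 4, 5 and 16. It was 0.06, 0.33 and 0.10 in wild-type APAP livers 12, 13 and 14 and 0.36, 0.17 and -0.08 in wild-type saline livers 8, 9 and 10. Liver-null saline 5, liver-null saline 4 and liver-null APAP 2 were thus within the wild-type range, and the lowest livers of both genotypes in saline belong to the smaller set of arrays. Over all tested genes the mean deviation of an array was between -0.11 and 0.07.

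Among the regulators of interferon signalling, Usp18 and Irf9 fell. USP18 removes the ubiquitin-like modifier ISG15 from proteins and also damps signalling at the type I interferon receptor. Usp18 read 4.88, 5.05 and 4.52 in liver-null APAP livers and 4.45, 5.59 and 3.72 in liver-null saline livers. It read 5.69, 6.50 and 5.86 in wild-type APAP livers and 6.26, 6.07 and 5.54 in wild-type saline livers. After APAP the genotypes did not overlap, while in saline liver-null saline 5 lay just above the lowest wild-type liver. Over both treatments Usp18 averaged 4.70 ± 0.63 in livers labelled liver-null and 5.99 ± 0.36 in wild-type livers (SD, n = 6 each), a 2.44-fold fall (log2 difference -1.29, SE 0.28, limma adjusted p = 0.0249).

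IRF9 is the DNA-binding partner of STAT2. Irf9 read 5.33, 5.25 and 5.15 in liver-null APAP livers and 5.05, 5.48 and 4.67 in liver-null saline livers. It read 5.49, 6.05 and 5.85 in wild-type APAP livers and 5.94, 5.76 and 5.55 in wild-type saline livers. All 6 livers labelled liver-null lay below all 6 wild-type livers, at the closest by 5.48 against 5.49. Irf9 averaged 5.16 ± 0.28 in livers labelled liver-null and 5.77 ± 0.22 in wild-type livers (SD, n = 6 each; log2 difference -0.62, SE 0.14, limma adjusted p = 0.0335). The other signalling members did not pass. Stat2, its partner, had a difference of -0.17 (95% interval -0.56 to 0.22), and Irf7, which amplifies interferon production, -0.31 (-0.70 to 0.07). Irf1, a factor induced mainly by interferon gamma, had 0.09 (-0.19 to 0.37), and Trim25, a ubiquitin ligase that acts on the RNA sensor RIG-I, -0.16 (-0.56 to 0.24).

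Parp9 and Parp14 fell as well. Both belong to the poly(ADP-ribose) polymerase family and carry macrodomains, which bind ADP-ribose. Parp9 read 7.72, 7.94 and 7.79 in liver-null APAP livers and 8.16, 7.86 and 7.50 in liver-null saline livers. It read 8.71, 8.65 and 8.36 in wild-type APAP livers and 8.53, 8.55 and 8.08 in wild-type saline livers. Only liver-null saline 4 exceeded a wild-type liver, wild-type saline 10. Parp9 averaged 7.83 ± 0.22 in livers labelled liver-null and 8.48 ± 0.23 in wild-type livers (SD, n = 6 each), a 1.57-fold fall (log2 difference -0.65, SE 0.13, limma adjusted p = 0.0174).

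Parp14 read 4.92, 4.50 and 4.90 in liver-null APAP livers and 5.03, 5.44 and 4.61 in liver-null saline livers. It read 5.64, 5.72 and 5.60 in wild-type APAP livers and 5.66, 5.53 and 5.22 in wild-type saline livers. The groups stood apart after APAP and overlapped in saline through liver-null saline 5 and wild-type saline 10. Parp14 averaged 4.90 ± 0.33 in livers labelled liver-null and 5.56 ± 0.18 in wild-type livers (SD, n = 6 each), a 1.58-fold fall (log2 difference -0.66, SE 0.14, limma adjusted p = 0.0243).

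Of the GTPases, which act on the membranes of vacuoles that hold pathogens or on viral particles, Iigp1 fell. Iigp1 is an immunity-related GTPase that coats such vacuoles. It read 10.60, 10.48 and 10.32 in liver-null APAP livers and 10.65, 10.80 and 10.31 in liver-null saline livers. It read 10.90, 10.97 and 10.97 in wild-type APAP livers and 11.01, 11.06 and 10.88 in wild-type saline livers. All 6 livers labelled liver-null were below the 6 wild-type livers, and Iigp1 averaged 10.53 ± 0.19 in livers labelled liver-null and 10.97 ± 0.07 in wild-type livers (SD, n = 6 each; log2 difference -0.44, SE 0.10, 1.36-fold, limma adjusted p = 0.0252). The second probe set of Iigp1 had a difference of -0.46. Iigp1 and Irf9 were the 2 members that separated the 6 livers of each genotype downward, as did 2.09% of all genes tested.

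**Figure D2:**
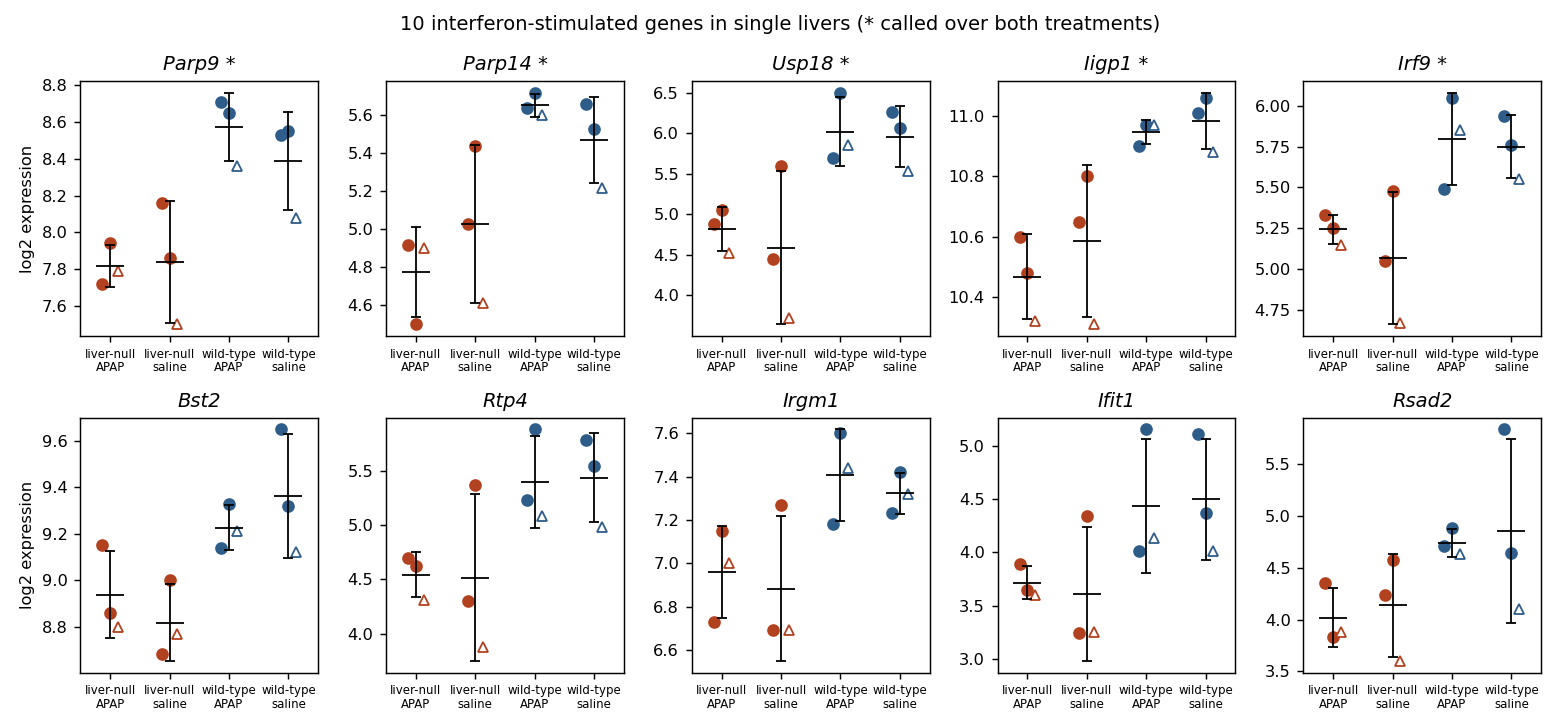
Log2 expression (vertical axis, a separate range for each gene) of the 10 interferon-stimulated genes with the smallest p for the genotype difference over both treatments, in each liver of the 4 groups. Circles are arrays of the larger set and open triangles those of the smaller set, the bar is the mean and the whiskers are the SD of 3 livers. For Iigp1 and Irf9 the liver-null livers all lie below the wild-type livers, and liver-null saline 5 holds the highest liver-null value of every plotted gene but Parp9 and Bst2.

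The remaining GTPases were mixed. Irgm1, a regulator of this family, averaged 6.92 ± 0.25 in livers labelled liver-null and 7.36 ± 0.16 in wild-type livers (SD, n = 6 each), a difference of -0.44 that did not pass (limma adjusted p = 0.0781). Igtp, a second regulator, had a difference of -0.22 (95% interval -0.78 to 0.34). Gbp2, a guanylate-binding protein, went the other way without passing. It read 4.26, 4.06 and 3.13 in liver-null APAP livers and 4.92, 4.73 and 3.48 in liver-null saline livers, against 3.46, 3.68 and 3.88 in wild-type APAP livers and 3.90, 3.63 and 3.52 in wild-type saline livers. Within the larger set of arrays Gbp2 passed as higher over both treatments (0.82, limma adjusted p = 0.00958), while within the smaller set it had -0.40, and its other probe set had 0.47 over all arrays. Gbp3 had 0.05 over all arrays, with 0.36 in the larger and -0.58 in the smaller set. The dynamin-like genes Mx1 and Mx2, whose proteins block viruses, differed by -0.08 and -0.01. The Mx1 allele of this strain is known to be defective.

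The IFIT and IFI members were below 0 in all 4 cases, and none passed. IFIT proteins bind foreign RNA ends and block its translation. Ifit1 read 3.89, 3.65 and 3.60 in liver-null APAP livers and 3.24, 4.34 and 3.25 in liver-null saline livers, against 4.01, 5.16 and 4.14 in wild-type APAP livers and 5.12, 4.37 and 4.01 in wild-type saline livers. The difference of Ifit1 was -0.81 (95% interval -1.39 to -0.23, limma adjusted p = 0.124). Ifit3 read 5.17, 5.03 and 4.77 in liver-null APAP livers and 5.18, 6.28 and 4.65 in liver-null saline livers, against 5.15, 6.10 and 5.76 in wild-type APAP livers and 6.06, 5.97 and 5.28 in wild-type saline livers. Liver-null saline 5 held the highest Ifit3 value of all 12 livers, and the difference was -0.54 (-1.12 to 0.04). Ifit2 and Ifi35 had -0.14 and -0.26.

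Among the sensors of foreign nucleic acid none passed. Ifih1, the gene of the long double-stranded RNA sensor MDA5, read 7.31, 7.42 and 6.92 in liver-null APAP livers and 7.32, 7.67 and 6.99 in liver-null saline livers. It read 7.55, 7.89 and 7.32 in wild-type APAP livers and 7.81, 7.68 and 7.52 in wild-type saline livers, so that the groups overlapped in each treatment (difference -0.36, 95% interval -0.67 to -0.04, limma adjusted p = 0.219). Dhx58, a relative of MDA5 without its signalling part, had -0.33 (-0.68 to 0.02), and Eif2ak2, the RNA-activated kinase PKR, -0.11 (-0.34 to 0.13). Zbp1, a sensor of left-handed nucleic acid, read 3.88, 3.58 and 2.75 in liver-null APAP livers and 4.36, 4.12 and 3.04 in liver-null saline livers, against 4.37, 3.47 and 3.44 in wild-type APAP livers and 3.79, 3.55 and 3.05 in wild-type saline livers. Its difference was 0.01 (-0.60 to 0.61), and in every group the lowest value was that of the smaller set of arrays.

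The OAS family makes or resembles enzymes that make the second messenger of the antiviral nuclease RNase L. Oasl1 read 3.47, 3.70 and 3.56 in liver-null APAP livers and 3.53, 3.77 and 3.48 in liver-null saline livers, against 3.32, 4.51 and 3.64 in wild-type APAP livers and 4.43, 3.89 and 3.70 in wild-type saline livers. The high wild-type values of Oasl1 were those of wild-type APAP 13 and wild-type saline 8 (difference -0.33, 95% interval -0.75 to 0.09). Oasl2 read 2.63, 2.65 and 2.37 in liver-null APAP livers and 2.39, 3.30 and 2.02 in liver-null saline livers, against 2.27, 2.55 and 2.54 in wild-type APAP livers and 2.74, 2.39 and 2.72 in wild-type saline livers. All but 1 of these Oasl2 values, that of liver-null saline 5, lie below the array medians, and the differences of Oasl2 and Oas2 were 0.03 and -0.08. Oas3, which failed the filter, read 1.76 to 2.40 in livers labelled liver-null and 1.72 to 2.50 in wild-type livers.

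All 7 tested members of the remaining effectors had differences below 0, Parp9 and Parp14 included. Rtp4, a chaperone of receptor transport that is strongly induced by type I interferon, read 4.70, 4.62 and 4.31 in liver-null APAP livers and 4.30, 5.37 and 3.88 in liver-null saline livers. It read 5.23, 5.88 and 5.08 in wild-type APAP livers and 5.78, 5.54 and 4.98 in wild-type saline livers, and its difference of -0.89 missed the threshold (SE 0.25, limma adjusted p = 0.0708). The second, dimmer probe set of Rtp4 had -0.20. Bst2, the gene of tetherin, which holds budding viruses at the cell surface, averaged 8.88 ± 0.17 in livers labelled liver-null and 9.29 ± 0.19 in wild-type livers (SD, n = 6 each; difference -0.42, limma adjusted p = 0.0562). Rsad2, the gene of viperin, an enzyme that makes a chain-terminating nucleotide, had -0.72 (limma adjusted p = 0.177) and -0.50 and -0.34 in its other probe sets. Cmpk2, a mitochondrial nucleotide kinase that neighbours Rsad2, had -0.11, and the chemokine gene Cxcl10 -0.24.

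**Figure D3:**
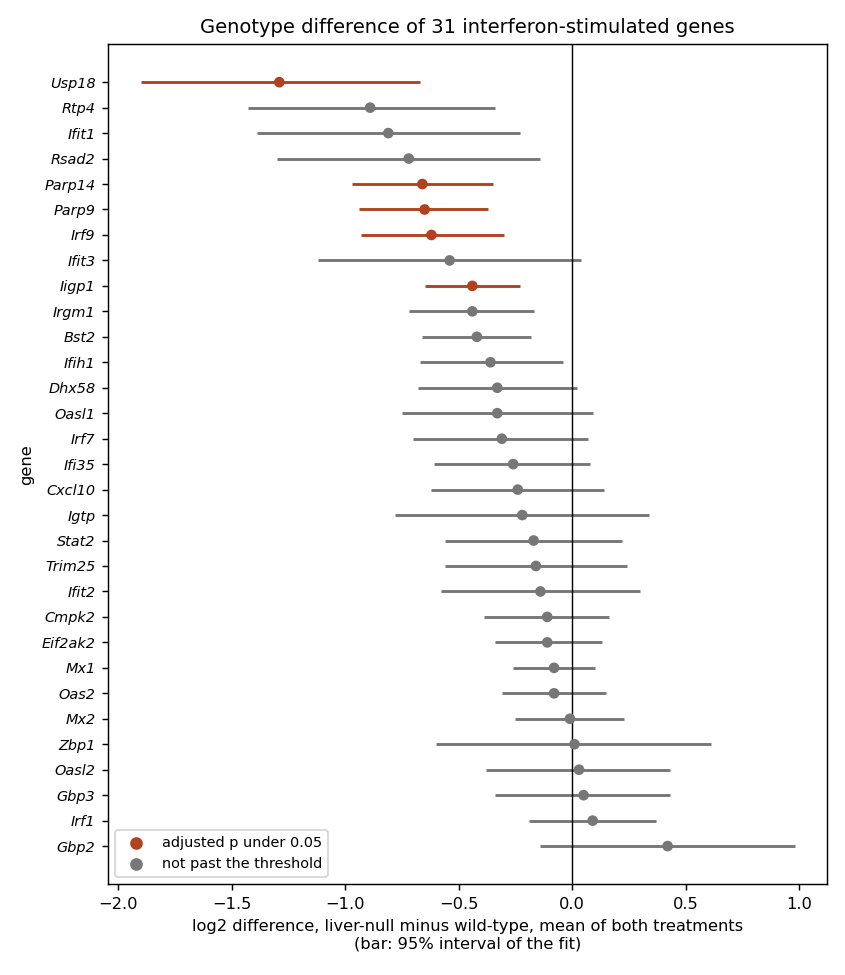
Log2 difference between livers labelled liver-null and wild-type livers, averaged over both treatments, for each of the 31 tested interferon-stimulated genes, with the 95% interval of the fit. The 5 genes past the threshold, in red, are Usp18, Parp14, Parp9, Irf9 and Iigp1, and the estimates run from -1.29 for Usp18 to 0.42 for Gbp2.

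The promoters of several of these genes are shown because the ISRE is the sequence through which the complex of STAT2 and IRF9 acts. RefSeq promoter windows (250 bases before to 50 after a gene's start, assembly GRCm38.p6) were matched by symbol to 27 of the 38 members. Of the 5 genes that fell, Irf9 alone was matched. The core of the ISRE was searched as GAAANNGAAA on both strands, counting overlapping matches, and was held by 15 of the 27 (55.6%), against 3.99% of 27025 genes. The core of the GAS, TTCNNNGAA, whose letters read the same on both strands, was held by 6 of the 27 (22.2%), against 9.55% of all genes. Over both treatments 11 members had an unadjusted genotype p under 0.05 and a difference below 0. Usp18, Parp9, Parp14, Iigp1 and Rtp4 among them had no matched window. Of the 6 that were matched, 5 held the ISRE core, as did 7 of the 15 other matched and tested members. This split rests on p-values of these same data, and a link between the core and the genotype difference was not tested. For 5 of these 6 genes (all but Ifih1, whose core lies after the start) the 140 bases before the start read as follows, 5′ to 3′ on the strand of the gene, with the ISRE core in capitals.
Irf9 (chr14:55603845-55603984, plus strand): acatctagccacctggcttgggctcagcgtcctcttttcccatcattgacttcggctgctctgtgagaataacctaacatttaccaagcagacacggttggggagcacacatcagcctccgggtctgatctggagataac
Bst2 (chr8:71537473-71537612, minus strand): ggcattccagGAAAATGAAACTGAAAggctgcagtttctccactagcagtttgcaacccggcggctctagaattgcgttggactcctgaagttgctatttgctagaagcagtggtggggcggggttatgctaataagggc
Irgm1 (chr11:48871421-48871560, minus strand): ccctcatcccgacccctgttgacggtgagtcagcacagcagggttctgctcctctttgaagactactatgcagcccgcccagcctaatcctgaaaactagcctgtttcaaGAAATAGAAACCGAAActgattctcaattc
Ifit1 (chr19:34640749-34640888, plus strand): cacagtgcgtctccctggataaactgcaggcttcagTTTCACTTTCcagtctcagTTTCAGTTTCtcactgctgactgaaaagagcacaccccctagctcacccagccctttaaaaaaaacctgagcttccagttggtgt
Rsad2 (chr12:26456453-26456592, minus strand): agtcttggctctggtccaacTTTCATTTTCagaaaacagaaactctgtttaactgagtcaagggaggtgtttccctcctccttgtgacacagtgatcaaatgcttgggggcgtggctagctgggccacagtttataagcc

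In these windows Bst2 and Irgm1 each hold a pair of overlapping cores, Ifit1 holds a pair set apart from each other, Rsad2 holds a single core and Irf9 holds none. Counted from the start of the gene, the cores of Bst2 begin at -130 and -124, those of Irgm1 at -30 and -24, those of Ifit1 at -104 and -85 and that of Rsad2 at -120. In Ifih1, the sixth matched gene, the core begins at base 33 after the start. A match of these letters is a description of the window and no evidence that a factor binds there.

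In each treatment alone, in groups that share no liver, most members lay below 0 and none passed. In saline 0 of 31 members passed, where 0.638% of all genes did (limma, adjusted p under 0.05). At an unadjusted p under 0.05 there were 8 members lower (25.8%) and 0 higher, against 7.2% of all genes lower and 5.01% higher. After APAP 0 of 31 passed, where 0.768% of all genes did, and 7 members were lower (22.6%) and 0 higher at an unadjusted p under 0.05, against 3.98% of all genes lower and 5.04% higher. Differences below 0 were found for 25 of 31 members in saline (55.2% of all genes) and for 28 after APAP (50.7% of all genes). The median difference of the members was -0.22 in saline and -0.33 after APAP, against -0.03 and 0 over all genes. The livers of the genotypes did not overlap, with liver-null below, for 4 members in saline (8.7% of all genes), which were Irf9, Iigp1, Bst2 and Eif2ak2. After APAP this held for 10 members (6.91% of all genes), which were Usp18, Irf7, Irf9, Ifit1, Rsad2, Irgm1, Iigp1, Parp9, Parp14 and Rtp4. In saline Usp18 had the largest difference (-1.37, SE 0.40, limma adjusted p = 0.16), and after APAP too (-1.20, SE 0.40, adjusted p = 0.272). The smallest adjusted p among the members was that of Bst2 in saline (0.154) and of Parp14 after APAP (0.0834). With the set of arrays as a covariate Usp18 and Parp9 passed in saline (adjusted p = 0.0437 for both, limma), and Parp9, Parp14 and Iigp1 passed after APAP (adjusted p = 0.014, 0.0355 and 0.0409, limma). Over both treatments this covariate raised the number of all genes passing as well. The share of all genes passing with it in each treatment alone is not given, so these calls stand without that comparison.

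Of the 31 members 24 were below 0 in both treatments (77.4%, against 35.4% of all genes) and 2 above 0 in both. Across the 31 members, which are not independent replicates, the differences in saline and after APAP had a Pearson r of 0.78 and a Spearman rho of 0.73, beside 0.70 and 0.53 across all 8469 genes. Both treatments contain arrays of the same 2 sets. Parp14 had the larger difference after APAP (-0.88 against -0.44 in saline) and Bst2 in saline (-0.55 against -0.29 after APAP), and neither change passed the test of interaction (adjusted p = 0.999 for both, limma).

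**Figure D4:**
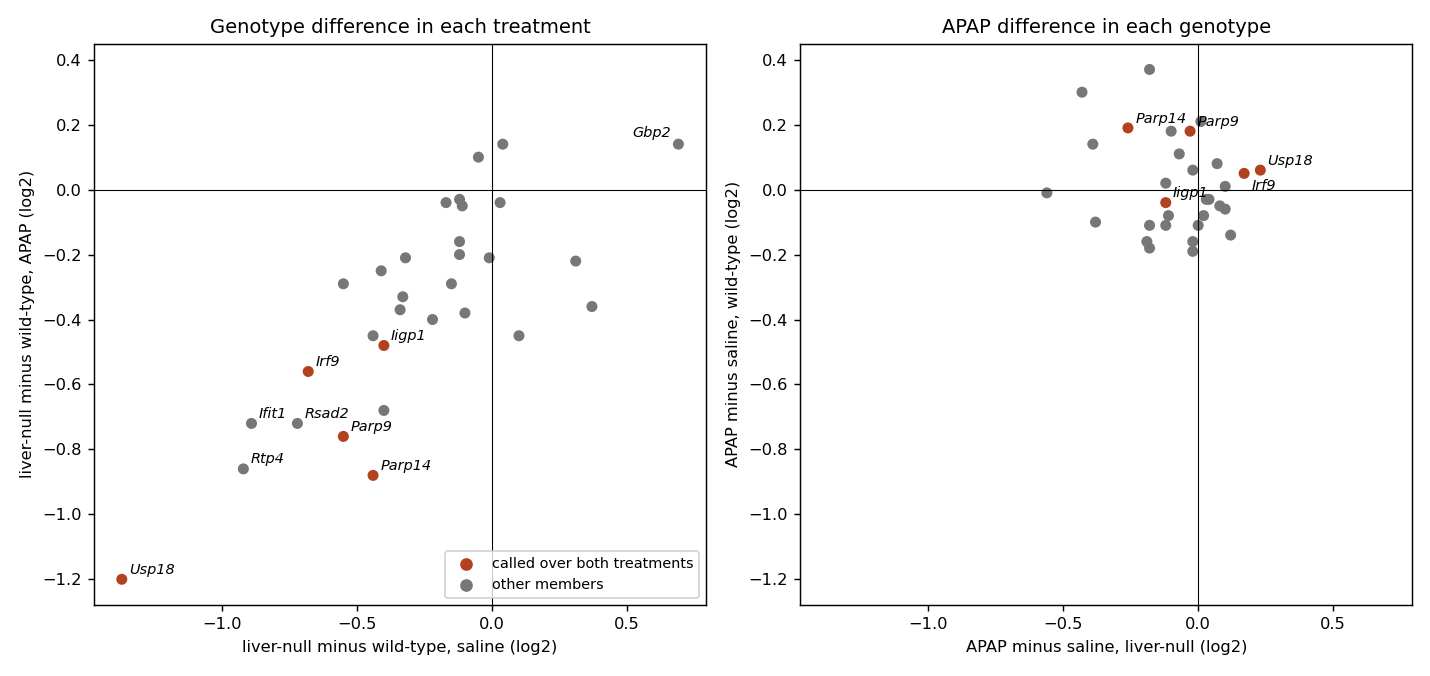
Log2 differences of the 31 tested interferon-stimulated genes. Left, liver-null minus wild-type in saline (horizontal) against the same after APAP (vertical), with 24 genes below 0 on both axes; right, APAP minus saline in livers labelled liver-null (horizontal) against wild-type livers (vertical), where the points lie about 0. Genes called over both treatments are red.

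APAP itself moved no member past the threshold at 8 hours. In wild-type livers 0 of 31 members passed and 0 had an unadjusted p under 0.05, where 0% of all genes passed and 1.69% had such a p (limma). The differences, APAP minus saline, ran from -0.19 for Oasl1 to 0.37 for Stat2, with a median of -0.03. In livers labelled liver-null 0 of 31 passed and 0 had an unadjusted p under 0.05, where 0% of all genes passed and 0.697% had such a p. The differences ran from -0.56 for Gbp2 to 0.23 for Usp18, with a median of -0.03. Averaged over the genotypes, 0 of 31 members passed, as did 0% of all genes, and 0 had an unadjusted p under 0.05, as did 1.2% of all genes. In this average every member's 95% interval lay between -0.85 and 0.76. With 3 livers a group the single-genotype intervals were wider, from -0.94 to 1.15 in wild-type livers and from -1.35 to 1.10 in livers labelled liver-null. The interaction of genotype and APAP passed for 0 of 31 members, as for 0% of all genes, and the largest estimate was that of Zbp1 (-0.73, 95% interval -1.94 to 0.48).

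The calls over both treatments changed when single livers were left out and with how the 2 sets of arrays were handled. With the set of arrays as a covariate 9 members fell, the 5 above with Bst2, Rtp4, Irgm1 and Ifih1. More of all genes passed in that fit too, and in the larger set alone, with the numbers given in the last paragraph. In the larger set alone 3 members passed, Parp9 and Parp14 as lower and Gbp2 as higher, and 25 of 31 members were below 0 (median -0.19, where 55.0% of all genes were below 0). In the smaller set, with 1 liver a group and 2 a genotype, no test was run, and 29 of 31 were below 0 (median -0.46, where 47.9% of all genes were below 0). Usp18 had a difference of -1.14 in the larger and -1.58 in the smaller set, Irf9 -0.53 and -0.79, Parp9 -0.69 and -0.58, Parp14 -0.66 and -0.65 and Iigp1 -0.35 and -0.61.

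Without wild-type saline 8 or wild-type saline 9 all 5 calls were lost, with Usp18 at -1.21 and -1.26, Irf9 at -0.57 and -0.61, Parp9 at -0.62 and -0.61, Parp14 at -0.61 and -0.64 and Iigp1 at -0.43 and -0.42. Without wild-type APAP 13 only the call of Parp9 was kept, with Usp18 at -1.17, Irf9 at -0.55, Parp14 at -0.64 and Iigp1 at -0.43. Without liver-null APAP 2 the calls of Usp18 (-1.30), Irf9 (-0.64) and Parp9 (-0.63) were lost. Without liver-null APAP 3 those of Irf9 (-0.62), Parp14 (-0.59) and Iigp1 (-0.44) were lost, and without liver-null APAP 17 those of Usp18 (-1.21), Irf9 (-0.59) and Iigp1 (-0.40). Without liver-null saline 4 the calls of Usp18 (-1.25) and Irf9 (-0.61) were lost, and omission of liver-null saline 16 (-0.52) or of wild-type APAP 14 (-0.60) ended that of Irf9 too. Over these 12 omissions the adjusted p of a lost call was at most 0.092 for Irf9, 0.0697 for Usp18, 0.0691 for Iigp1, 0.0679 for Parp14 and 0.0515 for Parp9 (limma). No difference of the 5 changed sign. The numbers of all genes passing in these omissions are not given. Dependence of the members on single livers therefore cannot be told apart from a loss of calls over all genes.

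Upstream of these genes, the interferon genes with a probe set read near background. Probe sets were present for 10 of 22 listed interferon genes, and 2 of them, Ifna1 and Ifna2, passed the filter on dim signals, with differences of 0.07 and 0 over both treatments. Ifna1 read 2.43 to 2.76 in livers labelled liver-null and 2.33 to 2.60 in wild-type livers, below the array medians. Ifnb1 read 2.02 to 2.31 in livers labelled liver-null and 1.96 to 2.19 in wild-type livers, and Ifng 1.29 to 1.53 and 1.31 to 1.60. Of 8 receptor subunits and Janus kinases 0 passed in any of the 7 comparisons. Over both treatments their differences ran from -0.19 for Ifnar1, a type I receptor subunit, to 0.19 for Il10rb, a subunit shared with the interleukin-10 receptor.

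Of 9 tested genes that induce interferon, 1 fell over both treatments and 0 rose, where 2.18% of all genes were called lower. The differences of 4 of the 9 were below 0 (median 0.01, against -0.01 over all genes). The gene that fell was Irf5, a transcription factor downstream of Toll-like receptors, which averaged 3.42 ± 0.08 in livers labelled liver-null and 4.03 ± 0.33 in wild-type livers (SD, n = 6 each; log2 difference -0.61, SE 0.14, limma adjusted p = 0.0348). The 6 livers labelled liver-null, at 3.27 to 3.51, lay below the 6 wild-type livers, at 3.61 to 4.51. Irf5 kept its call only without wild-type APAP 14 or wild-type saline 10 among the 12 omissions, with differences from -0.73 to -0.50, and its probe sets averaged together gave -0.34. Of 8 tested inhibitors of the pathway 0 passed over both treatments. The largest differences were 0.45 for Irf2, a repressor that competes with IRF1 (limma adjusted p = 0.148), and -0.36 for Socs3, a feedback inhibitor of JAK signalling (adjusted p = 0.747).

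Of 42 other tested interferon-stimulated genes, 2 fell over both treatments and 0 rose, where 2.18% of all genes were called lower. Lgals9, the gene of galectin-9, averaged 10.39 ± 0.09 in livers labelled liver-null and 10.79 ± 0.10 in wild-type livers (SD, n = 6 each; log2 difference -0.41, SE 0.08, limma adjusted p = 0.0159). The 6 livers labelled liver-null, at 10.26 to 10.55, lay below the 6 wild-type livers, at 10.64 to 10.91, and Lgals9 passed under all 21 alternatives, leaving out any of the 12 livers included. Helz2, a helicase that acts as a coactivator of nuclear receptors, averaged 7.30 ± 0.16 in livers labelled liver-null and 7.73 ± 0.19 in wild-type livers (SD, n = 6 each; log2 difference -0.43, SE 0.11, limma adjusted p = 0.0472). Its call was kept only without liver-null APAP 17 or wild-type APAP 14 among the 12 omissions, with differences from -0.49 to -0.36, and it was lost with all genes tested or with arrays centred on the upper quartile (adjusted p = 0.0507 and 0.055, limma). Of the 42 genes 32 had a difference below 0 (median -0.09), as did 53.2% of all genes (median -0.01), and 12 were lower and 0 higher at an unadjusted p under 0.05, where 9.26% of all genes were lower and 7.75% higher.

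Markers of other liver cells are set beside these values. Of 10 tested Kupffer cell and macrophage markers 0 passed over both treatments and 7 were below 0 (median -0.14). Their summed level was 10.39 to 11.40 in liver-null APAP livers, 10.58 to 11.25 in liver-null saline livers, 10.88 to 11.45 in wild-type APAP livers and 10.84 to 11.27 in wild-type saline livers (log2 of the summed linear values). Clec4f, which marks Kupffer cells, read 7.65 to 8.55 in livers labelled liver-null and 8.33 to 8.88 in wild-type livers (log2 difference -0.48, SE 0.16, limma adjusted p = 0.126). Marco, a scavenger receptor of macrophages, had the largest difference of the list, in the other direction (0.68, SE 0.70, adjusted p = 0.722, limma), with 2.13 to 7.38 in livers labelled liver-null and 3.10 to 4.86 in wild-type livers. The summed level of 6 hepatocyte markers was 15.52 to 15.55 in liver-null APAP livers and 15.47 to 15.50 in liver-null saline livers. It was 15.56 to 15.63 in wild-type APAP livers and 15.58 to 15.67 in wild-type saline livers. The genotypes thus did not overlap, at the closest by 15.55 against 15.56, and 2.09% of all single genes tested separated downward in this way. Of the 6 markers 0 passed, with the largest differences at -0.20 for Apoa1 and -0.12 for Apob. Of 7 dendritic cell markers on the array 3 passed the filter on dim signals and of 13 T, B and NK cell markers 5 did, and 0 of either list passed the test. Bst2 also marks plasmacytoid dendritic cells and is counted among the members here. The largest differences were -0.36 for Tcf4 and -0.07 for Irf8 among the dendritic cell markers, and 0.10 for Ms4a1 and -0.05 for Cd4 among the T, B and NK cell markers. The summed level of the dendritic cell markers was 5.70 to 5.98 in liver-null APAP livers, 5.68 to 5.82 in liver-null saline livers, 5.80 to 6.09 in wild-type APAP livers and 5.97 to 6.19 in wild-type saline livers. That of the T, B and NK cell markers was 6.09 to 6.25, 6.15 to 6.19, 6.13 to 6.31 and 6.10 to 6.21 in the same order of groups. Of 6 endothelial markers 0 passed, with the largest differences at 0.74 for Lyve1 and -0.28 for Kdr, and their summed level was 9.29 to 9.94 in livers labelled liver-null and 9.37 to 9.95 in wild-type livers.

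The summed levels of acute-phase genes and of monocyte and neutrophil markers varied within the groups, least in liver-null APAP livers. For 12 acute-phase genes the summed level was 15.28 to 15.37 in liver-null APAP livers and 15.43 to 16.33 in liver-null saline livers. In wild-type livers it was 14.99 to 16.10 after APAP and 15.03 to 15.48 in saline. Lcn2, the gene of the iron-binding protein lipocalin-2, is made by both neutrophils and stressed hepatocytes. It read 8.63, 9.52 and 8.74 in liver-null APAP livers and 12.96, 9.54 and 9.46 in liver-null saline livers. It read 11.79, 4.49 and 10.11 in wild-type APAP livers and 3.88, 10.49 and 6.03 in wild-type saline livers. Wild-type saline 8 and wild-type APAP 13, the livers with the lowest Lcn2, had the highest mean deviation of the 31 interferon-stimulated genes, whereas liver-null saline 4, with the highest Lcn2, lay near the middle. Other livers did not follow this order. Wild-type saline 10, with the next lowest Lcn2, had the lowest mean deviation of the wild-type livers (-0.08). Liver-null saline 5 and 16 had similar Lcn2 but mean deviations of 0.24 and -0.53. Of 12 acute-phase genes 0 passed over both treatments and 9 were above 0 (median 0.23). This average joins unlike treatments: in saline 1 of the 12 was below 0 (median 0.70), and after APAP 9 were (median -0.17). In the interaction all 12 were below 0 (median -0.94), and 0 passed there or in either treatment. Orm2, the gene of an acute-phase plasma glycoprotein, had a difference of 1.98 over both treatments (limma adjusted p = 0.159). Of 6 tested monocyte and neutrophil markers, Lcn2 included, 0 passed over both treatments and 5 were above 0, with Lcn2 at 2.01 and S100a8 at 0.17. Lcn2 averaged 10.65 in liver-null saline livers and 6.80 in wild-type saline livers, against 8.96 and 8.80 after APAP. Their summed level over 10 markers was 8.83 to 9.62 in liver-null APAP livers, 9.57 to 12.98 in liver-null saline livers, 6.23 to 11.83 in wild-type APAP livers and 6.13 to 10.54 in wild-type saline livers. The part of these cells and of the acute-phase response in the values of the interferon-stimulated genes was not tested.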

How the data were processed

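Liver RNA of 12 mice was read on 12 arrays. The authors deposited log2 expression values for 22690 probe sets, and RMA is the tool named in the submitters' processing notes. No version or setting of RMA is stated in the sources used here. Symbols are those of the GEO platform annotation and can be old: 20380 had 1 symbol, 691 several and 1555 none, beside 64 controls. A gene was its probe set with the highest mean, and entered the tests if its value passed the array's 40th percentile on 3 or more arrays. Differences were fitted with limma 3.58.1 in R 4.3.3 (lmFit and eBayes on 4 group means, 8 residual and 3.43 prior degrees of freedom, two-sided), with Benjamini-Hochberg adjustment over 8469 genes within each of 7 comparisons. Precision is limited by the number of arrays and, for dim genes, by signal near background. Per the design text the replicates are biological. Members of the Ifit, Oas and Gbp families are close in sequence, so their probe sets may cross-hybridize. The members and lists were chosen with earlier results of these data known. Per-liver values are given for called members and for the 2 members with the largest difference in each role, and for other lists the called genes or the 2 largest differences over both treatments. Of the called NRF2 targets only Nqo1 is given. The fit was tested on simulated data. Alternatives were the set of arrays, filters, scaling, array weights, variance model, probe set choice and leaving out each array.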

Additional observations from a re-analysis of the deposited data

How the results depend on the processing

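No paired analysis was possible because no replicate number is shared between the groups. The 3 comparisons of APAP with saline and the interaction gave 0 members under every alternative. For the genotypes over both treatments, where 5 members passed, the count was 9 with the array set as a covariate, 3 in the larger set alone (1 of them, Gbp2, higher), 8 with array weights and 0 to 7 when 1 array was left out. With the covariate, the larger set and array weights all genes passing changed as well, of 8469 tested and in either direction. They numbered 378 in the fit described, 882 with the covariate, 455 in the larger set and 1409 with array weights. With 1 array left out their number is not given, so those member counts stand without a share of all genes. In saline, where 0 members passed, the count was 2 with the covariate, 1 in the larger set alone (Gbp2, higher) and 5 with array weights, and 0 whichever array was left out. After APAP, where 0 passed, it was 3 with the covariate, 2 with array weights, 2 with quantile normalization, 1 with arrays centred on the upper quartile and 0 to 1 with 1 array left out. The numbers of all genes passing under these settings in saline or after APAP alone are not given. The member counts in each treatment therefore stand without a share of all genes. The fit on the 6 arrays of a comparison applies only where 2 groups are compared. The cause was not tested. Leaving out an array leaves fewer samples. The median of all genes moved by at most 0.059 under the other scalings. Signal near background limits the dim members.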
